A study of Mus musculus with 12 samples.

Results

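NRF2 pathway genes are the genes of the antioxidant program that the transcription factor NRF2 drives, and 10 of them were followed here in macrophages with and without the histone deacetylase Hdac3. They were chosen by name: Nfe2l2, which encodes NRF2, and Slc7a11, Gclc, Gclm, Gsr, Txnrd1, Srxn1, Nqo1, Hmox1 and Sqstm1. The choice was made with earlier results of these data known, so counts set beside all genes describe the list and do not test it. All 10 were on the array, each with 1 probe set of 28193, and they stand among 19945 genes tested. RNA was measured on single-colour Affymetrix arrays in macrophages grown from the bone marrow of C57BL/6 mice in L929-conditioned medium, a source of the growth factor CSF1. Each of 4 groups held 3 arrays. Hdac3 +/- cells, called wild type by the submitters although 1 allele of Hdac3 is disrupted, were left untreated or received 100 ng/ml of lipopolysaccharide (LPS, the bacterial component sensed by TLR4) for 4 h, and Hdac3 -/- cells had the same 2 states, all on day 7 of culture. The sources used here do not give how Hdac3 was disrupted, in which cells, or whether replicate cultures came from different animals. The p-values therefore measure the spread between these arrays only. In the +/- groups that spread holds at least 2 animals, since each has arrays of both sexes, and in the -/- groups it may be technical.

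NRF2 is a basic leucine zipper factor that is made and destroyed continuously. KEAP1 binds it and passes it to a ubiquitin ligase, and oxidants or electrophiles that modify KEAP1 let NRF2 build up, pair with a small MAF protein and bind antioxidant response elements in its target genes. The targets make glutathione, reduce thioredoxin and peroxiredoxins, detoxify quinones and break down haem. In macrophages LPS raises oxidant load and several metabolites that act on KEAP1, and NRF2 is known to restrain inflammatory genes there. The arrays measure mRNA, so they do not show how much NRF2 protein the cells held.

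Values are log2 signals, on which a step of 1 is a doubling, and differences carry ± 1 SE from limma (n = 3 arrays a group). A gene counts as changed where its p-value, adjusted over all 19945 genes, was under 0.05. Groups "do not overlap" where every array of one lies above every array of the other. Single arrays are written in the form -/- untreated 2, where the last digit is the replicate. Signals of different probe sets are not compared with each other, only differences.

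The whole data set was checked first. Hdac3 itself was lower in all 6 Hdac3 -/- arrays (6.91 to 7.52) than in all 6 Hdac3 +/- arrays (8.66 to 9.42), with differences of -1.74 ± 0.153 untreated (adjusted p = 1.66e-05) and -1.75 ± 0.153 after LPS (adjusted p = 5.9e-06). Its probe set may lie outside the disrupted stretch, whose position the sources used here do not give. The arrays' median signal lay between 5.19 and 5.37. All 8 macrophage markers were above that median, and their mean ran from 11.6 to 11.7 in untreated +/- arrays, 11.3 to 11.5 in LPS-treated +/- arrays, 11.3 to 11.5 in untreated -/- arrays and 11.1 to 11.3 in LPS-treated -/- arrays. Of the markers of other cells, 1 of 8 for neutrophils (list mean 4.33 to 5.57 over all arrays) and 3 of 5 for stroma (5.09 to 5.72) were above the median, and 0 of 6 for dendritic cells, 0 of 4 for B cells, 0 of 6 for T and NK cells, 0 of 6 for mast cells, basophils and eosinophils and 0 of 2 for erythroid cells. By sex-linked genes 1 array in each +/- group, replicate 1 in both, was male and all others female. Single markers differed between the genotypes and were named after their values were seen. The macrophage Fc receptor gene Fcgr1 was at -1.45 untreated and -2.41 after LPS, both called, while the median of the 8 macrophage markers was 0.02 and 0.09. Ngp (neutrophil, -1.18) and Cd79b (B cell, -0.60) were lower in untreated -/- arrays, and Ccr3 (eosinophil, -2.17) and Xcr1 (dendritic, -0.70) in LPS-treated ones. The neutrophil marker S100a8 was at 2.04 and 1.96 and did not pass (adjusted p = 0.261 and 0.112). The part of these marker shifts in the results was not tested, and in bulk RNA fewer cells of a type and less RNA per cell cannot be told apart.

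Promoters were searched because most members were higher in Hdac3 -/- arrays, as given below, and NRF2 is known to act through a defined DNA element. RefSeq promoter windows (assembly GRCm38.p6, 250 bases before to 50 bases after a start) were given for 7 of the 10 members, and Gclc, Gsr and Hmox1 had no entry. The core of the antioxidant response element was searched as TGACNNNGC and the AP-1 site, bound by a related zipper family, as TGANTCA, both on both strands. The core stood in the windows of 4 of 7 members, Gclm, Srxn1, Txnrd1 and Nfe2l2, beside 14.0% of 27025 genes with a window. The AP-1 letters stood in 1 of 7, Srxn1, beside 8.97% of genes, and Nqo1, Slc7a11 and Sqstm1 held neither. A match is a description of letters and not a bound site, and elements outside these windows were not searched. Variants of the core with another letter in place of its C were not searched either. The stretches below run 5′ to 3′ on the strand of the gene, with the match in capitals. The Gclm stretch is at chr3:122245403-122245451, the Srxn1 stretches at chr2:152105402-152105448 and chr2:152105459-152105505 and the Txnrd1 stretch at chr10:82859094-82859142, all on the plus strand, and the Nfe2l2 stretch is at chr2:75704875-75704913 on the minus strand.
Gclm, antioxidant response element core read on the opposite strand: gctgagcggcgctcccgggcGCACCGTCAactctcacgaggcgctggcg
Srxn1, AP-1 letters farther from the start: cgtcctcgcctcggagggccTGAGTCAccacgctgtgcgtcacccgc
Srxn1, AP-1 letters nearer to the start: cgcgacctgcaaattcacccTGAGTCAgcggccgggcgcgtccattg
Txnrd1, core read on the opposite strand: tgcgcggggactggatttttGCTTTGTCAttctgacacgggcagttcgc
Nfe2l2, core: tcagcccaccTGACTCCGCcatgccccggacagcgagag
Counted in bases from the start, the matches begin at -134 in Gclm, at -102 and -45 in Srxn1, at -92 from the second of 3 starts of Txnrd1 and at -240 in Nfe2l2. Srxn1 also had a core match at 29, after its start. Its AP-1 letters nearer to the start run on into gc. That stretch differs from the searched core only by a G where the core has its first C.

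**Figure D1:**
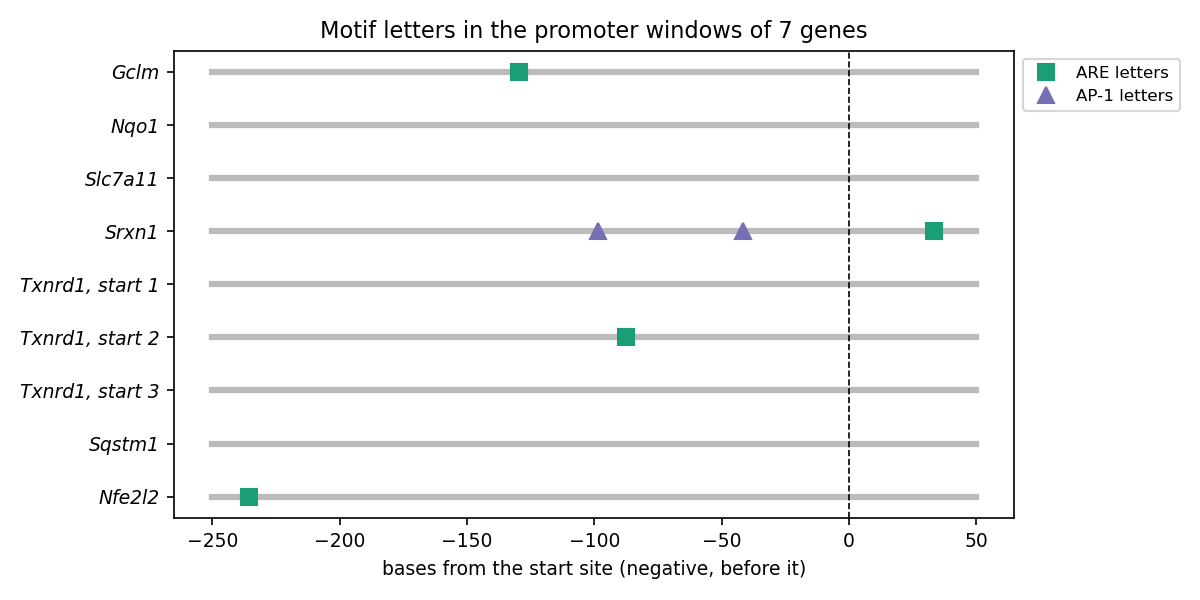
Promoter windows of the 7 members with a RefSeq entry (Txnrd1 with 3 starts), drawn from 250 bases before to 50 bases after the start on the horizontal axis; marks show where the antioxidant response element core and the AP-1 letters matched on either strand. The core appears in Gclm, Srxn1, Txnrd1 and Nfe2l2, and the AP-1 letters appear in Srxn1.

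The comparison of the genotypes asked which members differ when Hdac3 is lost, at rest and under LPS. In untreated cells 8 of 10 members were higher in Hdac3 -/- arrays and 0 were lower (0 also at an unadjusted limma p under 0.05), beside 1.22% of all genes called higher and 1.44% called lower. After LPS 9 of 10 were higher and 0 lower (0 also at an unadjusted limma p under 0.05), beside 9.69% of genes called higher and 5.99% called lower. The median difference of the 10 members was 1.53 untreated and 1.59 after LPS, against 0.01 and -0.04 over all genes. Every -/- array lay above every +/- array for 8 of 10 members untreated and for 10 of 10 after LPS, beside 9.64% and 17.3% of all genes. All 10 had their highest group mean in LPS-treated Hdac3 -/- cells. The lowest mean was in untreated +/- cells for 6 members and in LPS-treated +/- cells for 4. When only the untreated groups were fitted, which leaves fewer arrays for the estimate of the spread, 3 of 10 were called there. Gclc, Nqo1, Slc7a11, Srxn1 and Nfe2l2 lost the call (adjusted p from 0.0527 to 0.0929). Of all 19945 genes that fit called 135 higher and 186 lower, against 243 and 288 in the fit of all groups.

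**Figure D2:**
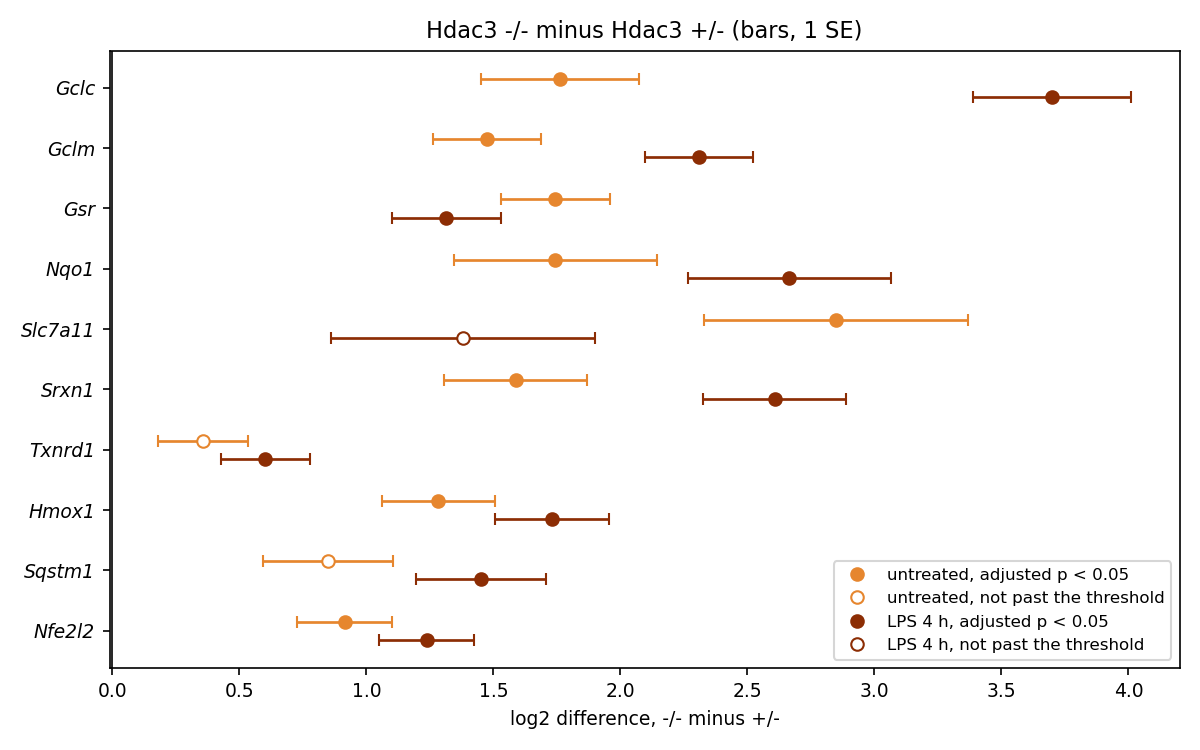
Log2 difference of Hdac3 -/- minus Hdac3 +/- arrays on the horizontal axis for each member, untreated and after LPS, with bars of 1 SE of the limma model (n = 3 arrays per group). All 20 differences lie above 0, from 0.36 for Txnrd1 untreated to 3.70 for Gclc after LPS.

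The regulator came first. Nfe2l2, the gene for NRF2, had log2 signals of 10.03, 10.65 and 10.55 in untreated Hdac3 +/- arrays and 10.11, 10.18 and 10.22 in LPS-treated ones. In Hdac3 -/- arrays they were 11.35, 10.98 and 11.64 untreated and 11.24, 11.52 and 11.46 after LPS. All 6 -/- arrays were above all 6 +/- arrays, and the treatments overlapped within each genotype. Loss of Hdac3 went with a difference of 0.91 ± 0.187 untreated (1.89-fold, adjusted p = 0.0173) and 1.24 ± 0.187 after LPS (2.36-fold, adjusted p = 0.000582). The untreated call of Nfe2l2 was lost without +/- untreated 1 (0.72, adjusted p = 0.069), -/- untreated 1 (adjusted p = 0.0794) or -/- untreated 3 (adjusted p = 0.0784).

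Sqstm1 encodes p62, the autophagy receptor that binds KEAP1 and competes with NRF2 for it, and is itself an NRF2 target. Its signals were 10.66, 11.56 and 11.21 in untreated +/- arrays and 11.74, 10.93 and 11.39 in LPS-treated ones, with both treatments overlapping. In -/- arrays they were 12.25, 11.53 and 12.20 untreated and 12.69, 12.92 and 12.81 after LPS. The untreated genotypes overlapped, since -/- untreated 2 was below +/- untreated 2. Their difference of 0.85 ± 0.256 did not pass (adjusted p = 0.115), and it passed without -/- untreated 2 (1.08, adjusted p = 0.0439). After LPS Sqstm1 was higher in Hdac3 -/- arrays by 1.45 ± 0.256 (2.74-fold, adjusted p = 0.00173).

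Next came the genes of glutathione synthesis. Slc7a11 is the subunit of the cystine-glutamate exchanger that brings in cystine, the source of the cysteine in glutathione. It had signals of 5.18, 6.93 and 5.16 in untreated +/- arrays and 11.38, 10.26 and 10.52 in LPS-treated ones. The -/- arrays had 9.57, 7.42 and 8.83 untreated and 11.94, 12.38 and 11.98 after LPS. The 4 groups stood apart with no overlap, in the order untreated +/-, untreated -/-, LPS-treated +/- and LPS-treated -/-. Slc7a11 differed between the genotypes by 2.85 ± 0.520 untreated (7.21-fold, adjusted p = 0.00789), the highest value among the members there. After LPS the difference was 1.38 ± 0.520 and did not pass (adjusted p = 0.0924). It passed without +/- untreated 2 (adjusted p = 0.0414), without -/- untreated 2 (adjusted p = 0.0398), and when the LPS-treated groups were fitted alone (adjusted p = 0.00651). With the untreated groups fitted alone, the untreated difference of Slc7a11 was not called (adjusted p = 0.067). The signals of +/- untreated 1 and 3 were close to the median of all probe sets, where background can take up much of a signal, and its share was not tested.

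Gclc is the catalytic subunit of glutamate-cysteine ligase, which performs the rate-limiting step of glutathione synthesis. Its signals were 7.79, 7.48 and 8.22 in untreated +/- arrays and 7.21, 6.50 and 6.44 in LPS-treated ones. They were 10.35, 8.88 and 9.54 in untreated -/- arrays and 10.38, 10.42 and 10.45 in LPS-treated ones. No 2 groups overlapped, and the treatments moved apart in opposite order, lower with LPS in +/- arrays and higher with LPS in -/- arrays. The -/- treatments stood only narrowly apart (10.35 against 10.38 in the nearest arrays). The genotype difference was 1.76 ± 0.310 untreated (3.39-fold, adjusted p = 0.00622) and 3.70 ± 0.310 after LPS (13.0-fold, adjusted p = 4.37e-06), the highest among the members after LPS. With the untreated groups fitted alone, the untreated difference of Gclc was not called (adjusted p = 0.0527).

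Gclm, the modifier subunit of the same ligase, had signals of 9.60, 9.90 and 9.58 in untreated +/- arrays and 9.59, 8.86 and 8.78 in LPS-treated ones. In -/- arrays they were 11.49, 10.83 and 11.18 untreated and 11.28, 11.41 and 11.48 after LPS. All -/- arrays were above all +/- arrays. The modifier subunit was 2.78-fold higher without Hdac3 in untreated cells (1.47 ± 0.213, adjusted p = 0.00142) and 4.96-fold higher after LPS (2.31 ± 0.213, adjusted p = 9.1e-06). Gclc and Gclm had the highest correlation of all 45 pairs of members over the 12 arrays (r = 0.973).

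Gsr, glutathione reductase, regenerates glutathione from its oxidised form with NADPH. Its signals were 9.07, 8.88 and 8.73 in untreated +/- arrays and 9.83, 9.62 and 9.50 in LPS-treated ones, and the treatments did not overlap. They were 11.09, 10.20 and 10.62 in untreated -/- arrays and 11.09, 10.60 and 11.20 in LPS-treated ones, where they did. Gsr was higher in Hdac3 -/- arrays by 1.74 ± 0.215 untreated (3.35-fold, adjusted p = 0.000397) and by 1.31 ± 0.215 after LPS (2.49-fold, adjusted p = 0.00103). For Gsr and Slc7a11 the genotype difference was smaller after LPS than before it, and neither change passed the test of the interaction.

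In the thioredoxin branch both measured members are reductases that keep peroxide-removing proteins active. Srxn1, sulfiredoxin, which repairs over-oxidised peroxiredoxins, had signals of 8.10, 8.09 and 8.23 in untreated +/- arrays and 8.24, 8.08 and 8.28 in LPS-treated ones. All 6 lay within a narrow band. The -/- arrays were all above it, at 10.49, 8.89 and 9.80 untreated and 10.69, 10.74 and 10.99 after LPS. Sulfiredoxin differed by 1.59 ± 0.281 untreated (3.01-fold, adjusted p = 0.0063) and 2.61 ± 0.281 after LPS (6.09-fold, adjusted p = 3.76e-05). With the untreated groups fitted alone, the untreated difference of Srxn1 was not called (adjusted p = 0.0678).

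Txnrd1, the cytosolic thioredoxin reductase, had signals of 10.30, 9.98 and 9.85 in untreated +/- arrays and 10.93, 10.64 and 10.76 in LPS-treated ones. In -/- arrays they were 10.78, 10.31 and 10.11 untreated and 11.48, 11.34 and 11.31 after LPS. The genotypes overlapped untreated and stood apart after LPS. Txnrd1 had the smallest genotype differences of the 10, 0.36 ± 0.176 untreated (adjusted p = 0.435) and 0.60 ± 0.176 after LPS (1.52-fold, adjusted p = 0.0325). The second was lost on leaving out +/- LPS 2 (adjusted p = 0.102), +/- LPS 3 (adjusted p = 0.0937), -/- LPS 1 (adjusted p = 0.115), -/- LPS 2 (adjusted p = 0.0618) or -/- LPS 3 (adjusted p = 0.0769), and after cyclic loess (adjusted p = 0.0674).

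The last branch holds detoxifying enzymes. Nqo1 is the quinone reductase that serves as the usual readout of NRF2 activity. Its signals were 5.69, 5.97 and 5.71 in untreated +/- arrays and 5.50, 5.28 and 4.93 in LPS-treated ones, near the median of all probe sets. They were 8.23, 6.65 and 7.73 in untreated -/- arrays and 8.06, 6.97 and 8.68 in LPS-treated ones. No -/- array reached down to a +/- array, and the replicate numbered 2 was lowest in both -/- groups. The quinone reductase was higher without Hdac3 by 1.74 ± 0.399 untreated (3.35-fold, adjusted p = 0.0311) and by 2.67 ± 0.399 after LPS (6.34-fold, adjusted p = 0.000541). The untreated call was lost on leaving out any one of 6 arrays, among them -/- untreated 1 (1.40, adjusted p = 0.173) and +/- untreated 1 (1.69, adjusted p = 0.097), and the LPS call was lost with none.

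Hmox1, the inducible haem oxygenase, breaks haem down to biliverdin, carbon monoxide and iron, and is also repressed by BACH1. Its signals were 10.72, 10.18 and 10.55 in untreated +/- arrays and 10.49, 11.00 and 10.19 in LPS-treated ones. In -/- arrays they were 11.87, 11.95 and 11.47 untreated and 11.98, 12.55 and 12.33 after LPS. The +/- treatments overlapped, and the -/- treatments stood narrowly apart (11.95 against 11.98 in the nearest arrays). Haem oxygenase was higher in Hdac3 -/- arrays by 1.28 ± 0.223 untreated (2.43-fold, adjusted p = 0.00575) and 1.73 ± 0.223 after LPS (3.32-fold, adjusted p = 0.000164).

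**Figure D3:**
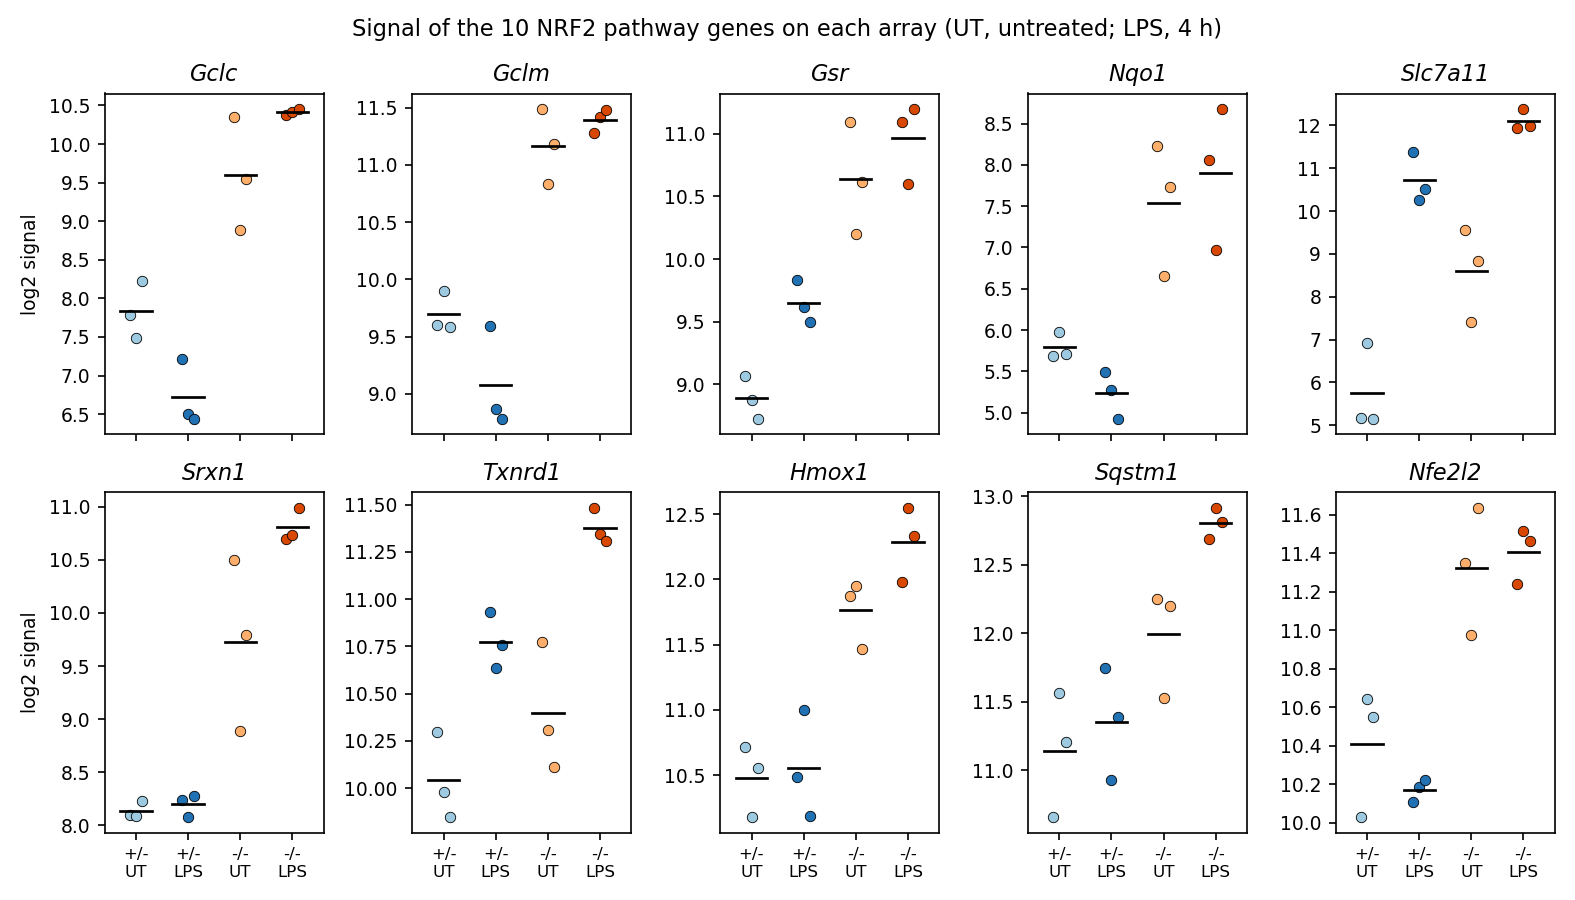
Log2 signal of each member on each of the 12 arrays (points) and the mean of each group (lines), in 1 panel per gene with its own vertical scale and the 4 groups on the horizontal axis. In every panel the LPS-treated Hdac3 -/- arrays lie above the LPS-treated +/- arrays, and -/- untreated 2 lies lowest of its group in 8 of 10 panels.

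The members did not respond to LPS as 1 group. In Hdac3 +/- cells 3 of 10 rose, Slc7a11, Gsr and Txnrd1, and 2 fell, Gclc and Gclm, beside 9.59% of all genes called higher and 15.5% called lower. Their median response was 0.07, against 0.08 over all genes. In Hdac3 -/- cells 3 rose, Slc7a11, Srxn1 and Txnrd1, and 0 fell (0 also at an unadjusted limma p under 0.05), beside 3.69% of genes called higher and 5.18% called lower. The median there was 0.67, against 0.02 over all genes. The contrasts between treatments share arrays with the contrasts between genotypes above.

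Slc7a11 had the largest LPS response of the members in both genotypes, 4.97 ± 0.520 in +/- cells (31.3-fold, adjusted p = 1.37e-05) and 3.50 ± 0.520 in -/- cells (11.3-fold, adjusted p = 0.000648). Txnrd1 rose by 0.73 ± 0.176 in +/- cells (1.66-fold, adjusted p = 0.00739) and by 0.98 ± 0.176 in -/- cells (1.97-fold, adjusted p = 0.00271). These were the members called in both genotypes. Gsr rose by 0.76 ± 0.215 in +/- cells (adjusted p = 0.0195), and was at 0.33 ± 0.215 in -/- cells (adjusted p = 0.464). The Gsr rise was not called without +/- untreated 3 (adjusted p = 0.0756) or +/- LPS 1 (adjusted p = 0.0546), nor with array weights (adjusted p = 0.0707).

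Both subunits of glutamate-cysteine ligase fell with LPS in Hdac3 +/- cells, Gclc by 1.11 ± 0.310 (adjusted p = 0.0177) and Gclm by 0.61 ± 0.213 (adjusted p = 0.0493). In -/- cells their differences were 0.82 ± 0.310 (adjusted p = 0.135) and 0.22 ± 0.213 (adjusted p = 0.67). That of Gclc was 1.20 and called without -/- untreated 1 (adjusted p = 0.0196), and 0.47 without -/- untreated 2 (adjusted p = 0.445). The fall of Gclc was not called after quantile normalization (-0.85, adjusted p = 0.0556) or cyclic loess (-0.88, adjusted p = 0.0507). Nor was it called without +/- untreated 3 (-0.92, adjusted p = 0.082), +/- LPS 2 (adjusted p = 0.0684) or +/- LPS 3 (-0.98, adjusted p = 0.0746), and that of Gclm was lost in 13 of 25 alternatives, where it ran from -0.92 to -0.47. Gclm arrays of both treatments overlapped, with +/- LPS 1 at the level of the untreated arrays. Without +/- untreated 3 the count of members called in +/- cells was 2 in place of 5, and without +/- LPS 2 or +/- LPS 3 it was 3. In that order, 1331, 1411 and 1440 of all 19945 genes were called higher and 2305, 2420 and 2246 lower. With all arrays these were 1912 and 3085.

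Srxn1 rose with LPS in Hdac3 -/- cells by 1.08 ± 0.281 (2.11-fold, adjusted p = 0.0275), and was at 0.06 ± 0.281 in +/- cells (adjusted p = 0.882). The rise was not called without -/- untreated 2 (0.66, adjusted p = 0.055), the lowest array of its group, nor without -/- untreated 3, -/- LPS 1, -/- LPS 2 or -/- LPS 3 (adjusted p 0.0656 to 0.0974). It was also lost with array weights (adjusted p = 0.0773) and when the -/- groups were fitted alone (adjusted p = 0.0647). The remaining members did not pass in either genotype with all 12 arrays. Hmox1 was at 0.08 in +/- and 0.52 in -/- cells, Sqstm1 at 0.21 and 0.81, Nqo1 at -0.56 and 0.36, and Nfe2l2 at -0.24 and 0.09. Their adjusted p ran from 0.0678 for Sqstm1 in -/- cells to 0.877 for Nfe2l2 in -/- cells. Sqstm1 in -/- cells passed in 6 of 25 alternatives, among them the -/- groups fitted alone (adjusted p = 0.0228), without +/- untreated 1 (0.0414), without +/- untreated 2 (0.0475) and without +/- LPS 2 (0.0489).

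**Figure D4:**
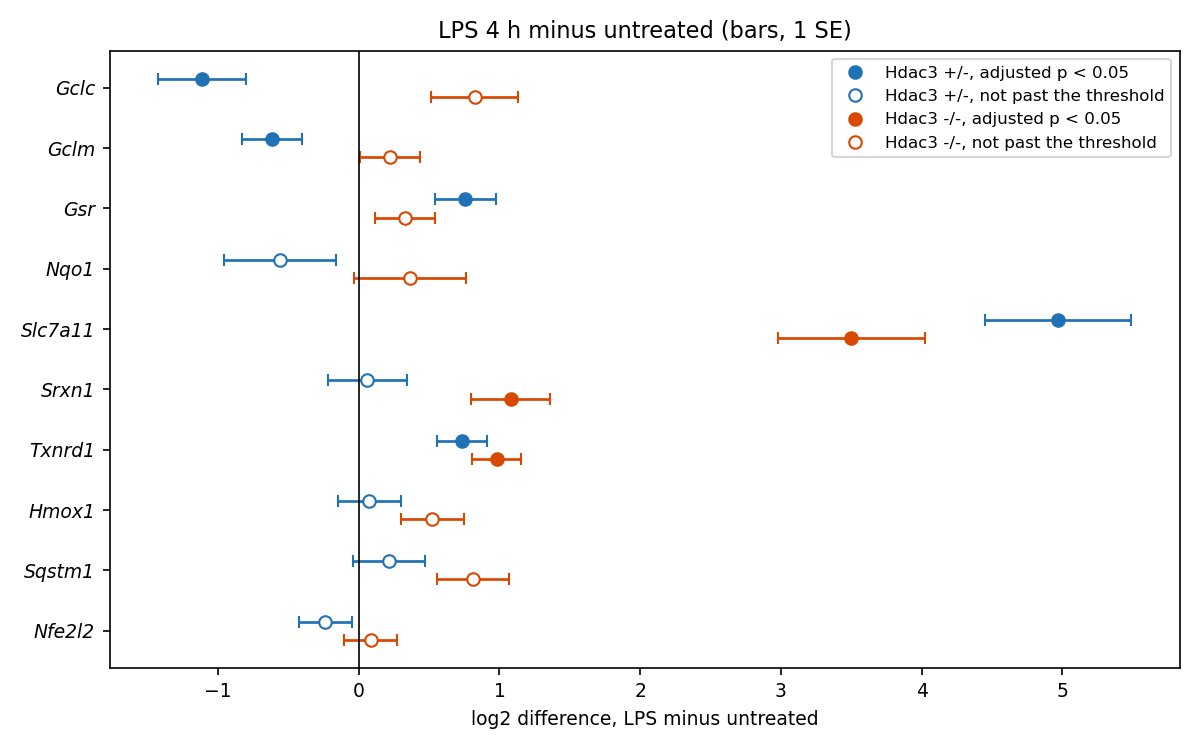
Log2 difference of LPS-treated minus untreated arrays on the horizontal axis for each member in Hdac3 +/- and in Hdac3 -/- cells, with bars of 1 SE of the limma model (n = 3 arrays per group). Slc7a11 lies farthest to the right in both genotypes at 4.97 and 3.50, and Gclc lies at -1.11 in +/- and 0.82 in -/- cells.

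Whether the LPS response itself differed between the genotypes was tested as the interaction of genotype and LPS. It passed in 0 of 10 members, beside 0.306% of all genes called with a larger value in -/- cells and 0.777% with a smaller one. At an unadjusted limma p under 0.05 there were 3 members, Gclc, Gclm and Srxn1, all with the larger value in -/- cells. Of all genes 5.77% had a larger and 5.67% a smaller value at that threshold. Gclc came nearest, with a response higher by 1.94 ± 0.439 in -/- cells (adjusted p = 0.0538). With the replicate number as a block in each genotype, the same difference was called (adjusted p = 0.0291), although in -/- cells same-numbered arrays did not deviate together (r from -0.122 to 0.195), and over all alternatives its adjusted p ran from 0.0134 to 0.137. The Gclc interaction was also called without +/- LPS 1 (2.19, adjusted p = 0.0302) and without -/- untreated 1 (2.32, adjusted p = 0.0134). Srxn1 (1.02 ± 0.398, adjusted p = 0.314) and Gclm (0.84 ± 0.301, adjusted p = 0.255) did not pass, although Gclm did without +/- LPS 1 (1.09, adjusted p = 0.0466). For Slc7a11 the response was smaller in -/- cells by a value of -1.47 ± 0.735 that did not pass (adjusted p = 0.484).

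Replicates of the members spread unevenly over the groups. Their median SD was 0.255 in untreated +/-, 0.348 in LPS-treated +/-, 0.425 in untreated -/- and 0.153 in LPS-treated -/- arrays, against 0.191, 0.207, 0.145 and 0.158 over all genes. Among untreated -/- arrays, replicate 2 was lowest of the group for 8 of 10 members and replicate 1 highest for 8. Without -/- untreated 2 the genotype difference in untreated cells was 2.12 for Gclc, 2.01 for Srxn1, 2.19 for Nqo1 and 3.44 for Slc7a11, and 9 of 10 members were called. Of all 19945 genes 244 were called higher in that fit. Without both +/- arrays numbered 1, the male ones, 6 of 10 members were called in untreated cells and 9 of 10 after LPS. Of all 19945 genes 156 were then called higher in untreated cells and 2203 after LPS.

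The levels of the members were related across arrays. Over all 12 arrays the 45 pairs had Pearson correlations between 0.322 and 0.973, with a median of 0.829. The 28 pairs without Slc7a11 and Txnrd1 lay between 0.762 and 0.973. Slc7a11 and Txnrd1 correlated with each other at 0.897, and the 16 pairs of either with another member ran from 0.322 to 0.714. The arrays share groups, so these values describe the group pattern and the spread within groups together. Of all other named genes Ppp2cb, a catalytic subunit of protein phosphatase 2A (r = 0.985), Kmt5a, the histone H4 lysine methyltransferase (0.980), the hyaluronan receptor gene Layn (0.975), the palmitoyltransferase gene Zdhhc12 (0.973) and the aldo-keto reductase gene Akr1c18 (0.972) were nearest to the mean pattern of the 10 members over the 12 arrays.

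Around the members, 79 other genes of the pathway were measured of 86 listed. In untreated cells 10 of them were higher in Hdac3 -/- arrays and 0 lower (percentages for all genes as above), with a median of 0.17. After LPS 28 were higher and 4 lower, with a median of 0.27. The untreated count was 3 without both +/- arrays numbered 1, and 13 without -/- untreated 2. With LPS itself 8 rose and 19 fell in +/- cells (median -0.18), beside 9.59% and 15.5% of all genes. In -/- cells 4 rose and 8 fell (median -0.06), beside 3.69% and 5.18%.

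Among 13 regulators and partners of NRF2 0 differed in untreated cells (2 at an unadjusted limma p under 0.05), while 2 were higher and 2 lower in Hdac3 -/- arrays after LPS. Of all genes 1.22% were called higher and 1.44% lower untreated, so the untreated 0 is near that share. After LPS the shares were 9.69% and 5.99%. At the unadjusted threshold 6.85% of all genes were higher and 5.86% lower untreated. Mafg, a small MAF partner of NRF2, was higher by 0.95 ± 0.153 (adjusted p = 0.000917). Mafk, another small MAF, was at -1.59 ± 0.189 (adjusted p = 8.55e-05), and Keap1, the protein that holds NRF2 back, at -0.88 ± 0.182 (adjusted p = 0.00509). Untreated, Keap1 was at -0.18 ± 0.182 and did not pass (adjusted p = 0.806). With LPS Keap1 rose by 0.69 ± 0.182 in +/- cells (adjusted p = 0.0129) and was at -0.01 in -/- cells (adjusted p = 0.985). The difference of these responses did not pass (-0.71 ± 0.258, adjusted p = 0.266). Mafk rose by 1.90 ± 0.189 with LPS in +/- cells (adjusted p = 8.62e-06) and was at 0.38 in -/- cells (adjusted p = 0.297). It was the single gene of the 79 whose LPS response differed between the genotypes (-1.52 ± 0.268, adjusted p = 0.0138). Bach1, the repressor that competes with NRF2 for its elements, fell by 0.74 ± 0.178 with LPS in -/- cells (adjusted p = 0.0183) and did not differ past the test between the genotypes (0.17 and -0.29).

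Of 12 other glutathione genes 0 passed in untreated cells (4 at an unadjusted limma p under 0.05), and 3 were higher and 1 lower in -/- arrays after LPS. For this list and the next, 1.22% of all genes were called higher and 1.44% lower untreated, and 9.69% and 5.99% after LPS. By unadjusted limma p 6.85% of all genes were higher and 5.86% lower untreated, and 16.8% and 12.1% after LPS. Gss, glutathione synthetase, which completes the molecule that Gclc and Gclm begin, differed by 1.20 ± 0.300 untreated (adjusted p = 0.052) and was higher by 2.25 ± 0.300 after LPS (4.76-fold, adjusted p = 0.000206). Gpx4, the lipid peroxide reductase, was higher by 1.21 ± 0.185 (adjusted p = 0.000613), and Ggct, a glutathione breakdown enzyme, was at -0.65 ± 0.163 (adjusted p = 0.0149). Among 16 thioredoxin and peroxiredoxin genes 1 was higher untreated and 5 after LPS, with 0 lower (1 untreated and 0 after LPS at an unadjusted limma p under 0.05). Prdx1, a substrate of sulfiredoxin, was higher by 1.23 ± 0.123 untreated (adjusted p = 6.14e-05) and 1.39 ± 0.123 after LPS (adjusted p = 6.77e-06). Catalase, Cat, was higher by 1.17 ± 0.306 after LPS (adjusted p = 0.0187), and so was Sesn1 by 0.91 ± 0.251 (adjusted p = 0.0257). Untreated, Sesn1 was at -0.65 ± 0.251, which did not pass (adjusted p = 0.268, the unadjusted one counted above). With LPS itself Sesn1 was at -5.07 ± 0.251 in +/- cells (adjusted p = 1.99e-08) and -3.52 ± 0.251 in -/- cells (adjusted p = 9.71e-07). Its higher value in -/- arrays after LPS thus lies between 2 lowered levels.

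Haem and iron genes, 11 measured beside Hmox1, had 2 higher and 0 lower untreated (1 lower at an unadjusted limma p under 0.05). After LPS 5 were higher and 1 lower, Hmox2 (-0.60 ± 0.162, adjusted p = 0.022). Of all genes 1.22% were called higher and 1.44% lower untreated (5.86% lower at the unadjusted threshold), and 9.69% and 5.99% after LPS. Blvrb, a biliverdin reductase, was higher by 1.01 ± 0.226 untreated (adjusted p = 0.0279) and 1.36 ± 0.226 after LPS (adjusted p = 0.00116). Blvra, also a biliverdin reductase and the unadjusted one counted above, went the other way. It was at -0.58 ± 0.199 untreated and -0.34 ± 0.199 after LPS and did not pass (adjusted p = 0.188 and 0.284). Ftl1, the ferritin light chain that stores iron, was higher by 0.97 ± 0.180 and 1.18 ± 0.180 (adjusted p = 0.00898 and 0.000599), and the haem transporter gene Slc48a1 by 1.09 ± 0.150 after LPS. Of 6 NADPH-supplying genes, Taldo1, a transaldolase of the pentose phosphate pathway, was higher untreated (0.70 ± 0.161, adjusted p = 0.0308), and Taldo1 (0.83), Pgd (0.82) and Tkt (0.51) were higher after LPS, with adjusted p of 0.00326, 0.008 and 0.0208.

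Detoxification and export, the longest of the lists, had 6 of 21 genes higher untreated, 10 after LPS and 0 lower in both. Of all genes 1.22% were called higher untreated and 9.69% after LPS, and 1.44% and 5.99% lower. The glutathione transferase Gsta3 was 8.18-fold higher untreated (3.03 ± 0.292, adjusted p = 4.15e-05) and 10.6-fold higher after LPS (3.40 ± 0.292, adjusted p = 5.27e-06). Gstp1, another transferase, was higher by 2.60 ± 0.420 and 2.99 ± 0.420, and the microsomal transferase Mgst2 by 1.91 ± 0.360 untreated. Cbr3, a carbonyl reductase, was higher by 2.69 ± 0.353 after LPS (adjusted p = 0.000186).

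ATF4, the amino acid stress factor that is also known to drive Slc7a11, and its targets were counted for comparison. Of 14 measured 0 were higher and 0 lower in Hdac3 -/- arrays in either state, with medians of -0.24 untreated and 0.02 after LPS. All genes called higher made up 1.22% untreated and 9.69% after LPS, and those called lower 1.44% and 5.99%. The untreated count of 0 is near those shares. At an unadjusted limma p under 0.05 there were 0 untreated and 2 after LPS, the factor's own gene Atf4 (0.49) and its target Mthfd2 (0.87), both named after their values were seen. By that measure 6.85% of all genes were higher and 5.86% lower untreated, and 16.8% and 12.1% after LPS. With LPS itself 0 of the 14 rose and 1 fell in each genotype, with medians of 0.03 in +/- and 0.35 in -/- cells. By unadjusted limma p 0 rose in +/- and 5 in -/- cells, with 1 lower in each. Of all genes 17.55% and 7.99% rose by that measure.

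**Figure D5:**
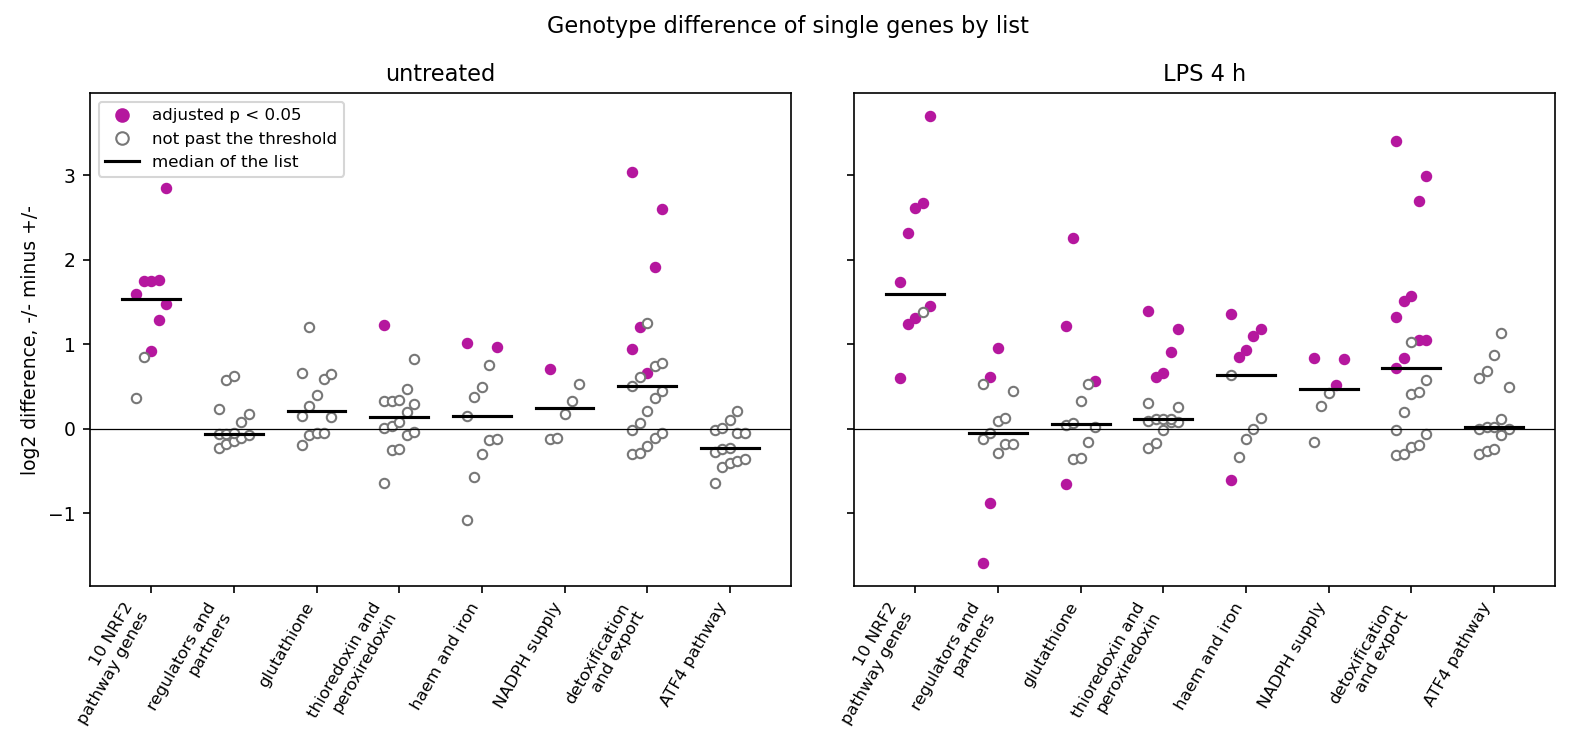
Log2 difference of Hdac3 -/- minus +/- arrays for each measured gene (points) of the members and of each pathway list, untreated and after LPS, with filled points for genes past the test and a line at each list's median. The members' medians lie at 1.53 and 1.59, above those of the other lists, the highest of which is 0.71 for detoxification and export after LPS.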

How the data were processed

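The authors deposited 1 log2 signal per probe set and array, made by RMA (affy package), which normalizes arrays together, per the submitters' processing notes. The sources used here give no version, chip description or genome build. RMA is known to compress the folds of dim genes. Of 28193 probe sets 21648 had 1 symbol in the platform annotation, 1313 several and 5232 none; the last 2 kinds were left out. For 954 genes with several probe sets the one with the highest mean was used, giving 19945 genes. Means of 4 groups were fitted to all 12 arrays with limma 3.58.1 (R 4.3.3; eBayes, no trend), and 5 contrasts were adjusted by Benjamini-Hochberg over all genes. The number of arrays limits the precision. Tables and figures used Python 3.11.15, pandas 2.3.3, numpy 2.4.6 and matplotlib 3.10.9. Scripts were tested on simulated data.

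The members, lists, tests and naming rule were chosen with earlier results of these data known. The rule named Hdac3, all members, up to 3 called genes per list with the largest genotype difference in each state, and the 5 genes nearest the members' mean pattern. Bach1, the LPS responses of Mafk, Keap1 and Sesn1, the untreated value of Keap1, Blvra, Hmox2 and the ATF4 targets named were added after their values were seen. The list genes Ggt1, Prdx5, Prdx6, Slc11a1, G6pdx, Gsta1 and Gsta2 were not analysed here. Replicate numbers, taken from the sample titles, were checked as pairs. Deviations from group means correlated at 0.223 to 0.327 between same-numbered +/- arrays of both treatments and at -0.122 to 0.195 between -/- arrays. Differently numbered +/- arrays of both treatments ran from -0.3045 to 0.1073. Arrays of different genotype and number reached 0.514, so the check does not settle whether the numbers mark pairs. Alternatives were other normalizations, filters, variance settings, blocks, a sex term and each array left out; leaving out both male arrays was chosen after seeing the data.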

Additional observations from a re-analysis of the deposited data

Results flagged for a closer look

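Gclc moved in opposite directions with LPS in the 2 genotypes. Every LPS-treated array was below every untreated array in Hdac3 +/- cells and above it in Hdac3 -/- cells. In -/- cells the gap was narrow, 10.35 against 10.38 in the nearest arrays. The responses were -1.11 ± 0.310 and 0.82 ± 0.310, of which the first was called and the second was not (adjusted p = 0.0177 and 0.135). Their difference, 1.94 ± 0.439, was tested as the interaction of genotype and LPS and did not pass (adjusted p = 0.0538). The interaction passed with a replicate block in each genotype (adjusted p = 0.0291), although it is not settled that the numbers mark pairs. Over all alternatives its adjusted p ran from 0.0134 to 0.137. The fall in +/- cells lost its call in 5 of 25 alternatives. The -/- value was 1.20 and called without -/- untreated 1 (adjusted p = 0.0196), and 0.47 without -/- untreated 2 (adjusted p = 0.445).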

How the results depend on the processing

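Counts of members called in the main analysis were 8 (genotypes, untreated), 9 (genotypes, LPS), 5 (LPS, +/-), 3 (LPS, -/-) and 0 (interaction). Fitting only the groups compared gave 3 for the untreated genotypes, where 135 of all 19945 genes were called higher. The +/- LPS count was 3 after cyclic loess and 2 with at least 2-fold required, and ran from 2 to 5 with single arrays left out. The interaction count was 1 with dim genes left out, 1 with a replicate block within each genotype, 1 with a replicate block over all groups, and 0 to 2 with single arrays left out. The block changed no other count by more than 1.5 times; under it the +/- LPS count was 5 within genotypes and 4 over all groups. With a sex term all 5 counts were the same. Without both +/- arrays numbered 1 they were 6, 9, 4, 4 and 0. Of 1220 alternative values 1135 kept their direction and their side of the threshold. A further 57 kept their direction and lost a call, and 18 kept it and gained one. The sign changed in 10 that were not called in either fit, and in 0 that were called in one. The cause was not tested, except that the fit of only the groups compared holds fewer arrays. With 3 arrays a group the spread is poorly known, and this and signals near the array median (Nqo1 and Slc7a11 in +/- cells) limit what can be called.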
